A study of Homo sapiens with 4 samples.

Results

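The PARP genes encode ADP-ribosyltransferases, and 9 of them were followed here together with DTX3L, the partner of PARP9. The genes were taken by name with every array probe whose RefSeq accession maps to them, which gave 10 of the 25122 genes with a symbol and 17 of the 58201 probes. PARP1, PARP2 and PARP3 were treated as the DNA-repair PARPs. PARP9, DTX3L, PARP14, PARP10, PARP12 and ZC3HAV1 were treated as the interferon-inducible genes, and PARP8, a little-studied mono-ADP-ribosyltransferase, was kept apart. The values were obtained from PC3 and DU145, both androgen-independent prostate cancer cell lines. In each line, cells with a control shRNA against luciferase (shC) were set against cells with an shRNA against ESS2 (shESS2), a nuclear protein known as a transcriptional coregulator and for its association with the spliceosome. The labels describe lentiviral transduction, whereas the methods of the study describe, for PC3, transfection with a plasmid and selection with puromycin. Those methods do not describe an ESS2 knockdown in DU145. All cells were grown in RPMI1640 with serum. The arrays were one-colour Agilent gene expression arrays, 1 for each of the 4 conditions, so that PC3-shC, PC3-shESS2, DU145-shC and DU145-shESS2 were each measured once.

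ADP-ribosyltransferases transfer ADP-ribose from NAD onto proteins and nucleic acids. PARP1 and PARP2 sense DNA breaks and build long poly-ADP-ribose chains that call in repair factors, and PARP3 adds single units at double-strand breaks. Most of the other family members add single units, and several of them are induced by interferon through a complex that holds STAT2 and IRF9 and binds the interferon-stimulated response element in the promoters of its targets. PARP9 binds the ubiquitin ligase DTX3L, PARP14 carries macrodomains that read ADP-ribose, PARP12 and ZC3HAV1 carry zinc fingers of the RNA-binding kind, and ZC3HAV1 (also called ZAP or PARP13) is catalytically inactive and restricts viral RNA.

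The promoters are shown first because they separate the members by a feature that the array does not measure. RefSeq promoter sequences of GRCh38.p14 were used, each reaching from 250 bases before to 50 bases after a gene start. They were searched for 9 of the 10 members. PARP10 was left out of the search, so whether its promoter holds the core is not given here. The core of the interferon-stimulated response element was searched as GAAA, any 2 bases, then GAAA, on both strands. The core was found in 4 members, namely DTX3L, PARP9, PARP14 and PARP12, against 4.38% of the 27305 genes of the table with any window that holds it, or 3.57% of its 35116 promoters. The windows of PARP1, PARP2, PARP3, PARP8 and ZC3HAV1 did not contain these letters. In the lines that follow the capitals mark this core, and PARP1 is given as a DNA-repair gene without it.
DTX3L promoter, chr3:122564088-122564387, plus strand: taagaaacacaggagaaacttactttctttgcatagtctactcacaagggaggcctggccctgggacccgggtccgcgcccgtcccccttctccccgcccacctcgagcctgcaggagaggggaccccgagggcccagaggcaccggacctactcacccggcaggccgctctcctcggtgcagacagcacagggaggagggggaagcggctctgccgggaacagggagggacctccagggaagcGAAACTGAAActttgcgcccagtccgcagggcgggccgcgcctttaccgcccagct
PARP9 promoter, chr3:122564251-122564550, minus strand: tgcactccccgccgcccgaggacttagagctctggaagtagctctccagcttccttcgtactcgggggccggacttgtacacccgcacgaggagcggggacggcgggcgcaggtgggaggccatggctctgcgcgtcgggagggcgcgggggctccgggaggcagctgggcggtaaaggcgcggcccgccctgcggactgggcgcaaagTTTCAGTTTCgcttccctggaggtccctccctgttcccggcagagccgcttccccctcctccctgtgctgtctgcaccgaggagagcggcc
PARP14 promoter, chr3:122680589-122680888, plus strand: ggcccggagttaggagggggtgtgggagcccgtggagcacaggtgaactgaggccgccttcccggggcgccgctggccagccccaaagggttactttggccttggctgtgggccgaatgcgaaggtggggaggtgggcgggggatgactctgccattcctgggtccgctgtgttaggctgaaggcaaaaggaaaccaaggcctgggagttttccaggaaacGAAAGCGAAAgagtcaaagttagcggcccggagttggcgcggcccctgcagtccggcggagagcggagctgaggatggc
PARP12 promoter, chr7:140062902-140063201, minus strand: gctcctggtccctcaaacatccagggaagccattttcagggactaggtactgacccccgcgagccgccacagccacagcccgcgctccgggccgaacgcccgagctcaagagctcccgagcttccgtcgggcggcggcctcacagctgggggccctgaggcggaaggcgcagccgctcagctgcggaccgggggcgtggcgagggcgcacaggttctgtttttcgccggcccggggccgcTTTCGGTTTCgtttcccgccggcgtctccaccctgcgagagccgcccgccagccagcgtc
PARP1 promoter, chr1:226408044-226408343, minus strand: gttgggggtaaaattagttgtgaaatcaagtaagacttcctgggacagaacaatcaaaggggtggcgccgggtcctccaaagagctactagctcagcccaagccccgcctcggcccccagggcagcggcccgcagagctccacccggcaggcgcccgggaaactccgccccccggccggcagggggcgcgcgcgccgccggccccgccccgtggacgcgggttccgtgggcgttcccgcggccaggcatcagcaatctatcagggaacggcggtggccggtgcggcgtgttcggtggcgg

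PARP9 and DTX3L are transcribed away from each other, and their windows overlap. The capitals in both sequences are the same 10 bases, chr3:122564332-122564341, read on opposite strands. Read in the direction of each gene, the core begins 6 bases before the DTX3L start and runs across it, and it begins 41 bases before this PARP9 start. A further PARP9 window, chr3:122564735-122565034, did not contain the core. In PARP14 the core begins 29 bases before the start, and in PARP12 it begins 10 bases before the start. A second search used TTCNNNGAA, the core of a STAT site, which reads the same on both strands. It was found in PARP14, beginning 40 bases before the start and not overlapping the other core, in PARP2 (beginning 154 bases before) and in ZC3HAV1 (104 bases before), against 9.38% of all genes in the table and 7.66% of all promoters. A match of letters is a description of the sequence and not evidence of binding.

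Before the members were read, the labels were compared with the arrays. The signal of ESS2 was 133 in PC3-shC, 53.6 in PC3-shESS2, 85.7 in DU145-shC and 17.3 in DU145-shESS2. Its log2 ratio (shESS2 over shC, after each array was scaled to its 75th percentile) was −1.45 in PC3 and −2.35 in DU145, while GAPDH had 0.18 and 0.044. The epithelial markers KRT8, KRT18, EPCAM and CDH1 were well above background on all 4 arrays, KLK3 on none, and CTNNA1, known to be lost in PC3, was well above background in DU145 alone. Of these epithelial markers only EPCAM was past 2-fold between shESS2 and shC. It was 6.11-fold lower in DU145-shESS2 (357) than in DU145-shC (2120). Between 50.8% and 52.6% of the non-control spots of an array were well above background, and 0 were saturated. The number of arrays, 1 for each condition, limits the precision of every value, and no difference within a line has a replicate check or a test. The only measured error is that between spots: over 286 probes in PC3 and 283 in DU145, spotted 10 times each, the SD of the log2 ratio between single spots had a median of 0.079 in both lines. For the few repeated probes with a signal under 100 it was 0.19 in PC3 (5 probes) and 0.25 in DU145 (8 probes). This error covers neither hybridization nor cells. The arrays of PC3 shared 1 slide and scan and those of DU145 another, so that cell line, slide and annotation release cannot be told apart in any comparison of the lines. In such bulk RNA, fewer cells that express a gene and less RNA per cell cannot be told apart either.

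In PC3, 4 of the 10 members were more than 2-fold lower in PC3-shESS2 than in PC3-shC, against 3.87% of the 16764 genes compared, and all 4 belong to the interferon-inducible genes. They were PARP10, PARP9, DTX3L and PARP14. One member, ZC3HAV1, was more than 2-fold higher, against 3.88% of genes, although with the arrays scaled to their medians its log2 ratio was 0.99, just under that limit. The even split of all genes moved with the scaling, from 649 lower and 650 higher to 803 and 511 when medians were used and to 535 and 792 by the authors' scaled values. The interferon-inducible genes had a median log2 ratio of −1.46, with 5 lower and 1 higher. The DNA-repair PARPs had a median of −0.27, with 2 lower, 1 higher and 0 past 2-fold, beside a median of −0.055 over all genes compared. In DU145, 0 of the 10 members were past a 2-fold difference in either direction, against 2.47% of the 16843 genes compared that were lower and 2.36% that were higher. With quantile normalization PARP10 passed 2-fold there, at a log2 ratio of −1.04. All 10 members had log2 ratios below 0 there by the probe that stood for the gene, although PARP3, at −0.032, reached 0.014 under other settings, with a median of −0.47 for the interferon-inducible genes and −0.16 for the DNA-repair PARPs, beside −0.021 over all genes.

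**Figure D1:**
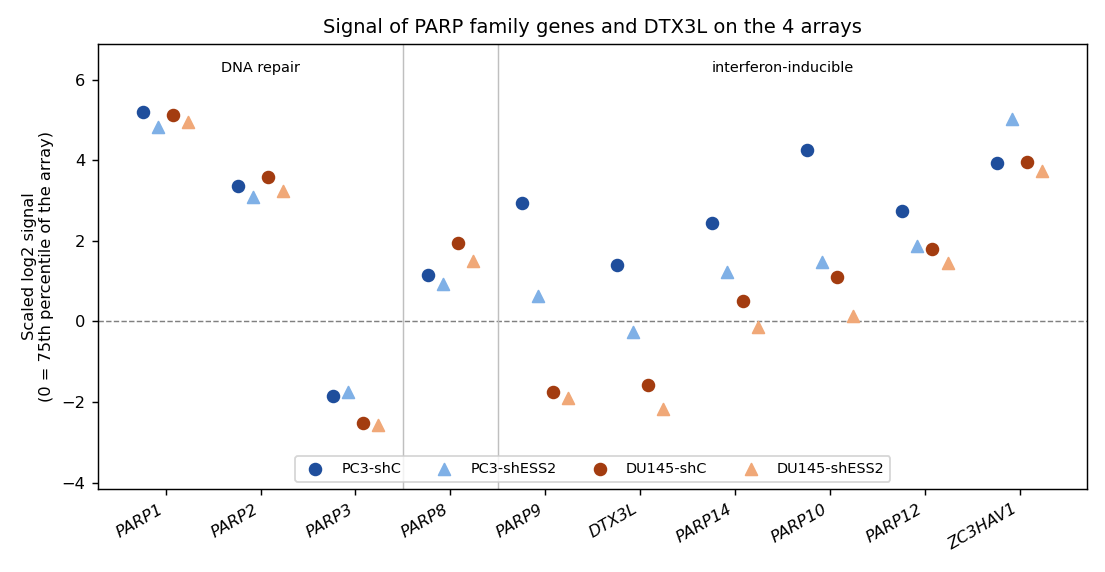
Scaled log2 signal of the 10 members on each of the 4 arrays (vertical axis, log2 of the signal minus the log2 75th percentile of the array, so that 0 is that percentile), 1 point per array and no error bar because each condition has 1 array. For PARP9, DTX3L, PARP14, PARP10 and PARP12 the PC3-shC point is the highest of the 4, while the 4 points of PARP1 and those of PARP2 lie close together. Levels are to be compared within a gene and not between genes, since each gene has its own probe.

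PARP1, the main sensor of DNA breaks, had a signal of 9630 in PC3-shC, 8140 in PC3-shESS2, 7340 in DU145-shC and 6750 in DU145-shESS2. Both shESS2 arrays were below their controls, with log2 ratios of −0.38 in PC3 and −0.16 in DU145. A second PARP1 probe gave −0.45 in PC3 and −0.23 in DU145, so that its probes spanned 0.063 and 0.070 on the log2 scale. These ratios are beyond the median SD between spots and far under 2-fold.

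PARP2, which shares the poly-ADP-ribosylating activity of PARP1, had a signal of 2690 in PC3-shC, 2460 in PC3-shESS2, 2550 in DU145-shC and 2040 in DU145-shESS2. Its log2 ratio was −0.27 in PC3 and −0.36 in DU145. A second probe, assigned to PARP2 only in the newer annotation release, was not well above background on any array and gave no ratio. PARP3, which acts at double-strand breaks, had a signal of 72.7 in PC3-shC, 86.6 in PC3-shESS2, 36.7 in DU145-shC and 36.9 in DU145-shESS2. Its log2 ratios of 0.11 and −0.032 lie within the spread between spots of similar brightness. The scaled control level of PARP1 differed by 0.081 on the log2 scale between PC3-shC and DU145-shC, that of PARP2 by −0.23 and that of PARP3 by 0.68. The second PARP1 probe had a signal of 3670 in PC3-shC and 1210 in DU145-shC, a log2 difference of 1.29, so that the control difference of PARP1 depended on the probe.

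PARP8 had a signal of 581 in PC3-shC, 553 in PC3-shESS2, 810 in DU145-shC and 611 in DU145-shESS2, with log2 ratios of −0.21 and −0.45. Its other probes did not give the same picture in DU145. One had log2 ratios of −0.35 in PC3 and −0.91 in DU145, and the other, whose signals lay between 59.9 and 245, had −0.71 in PC3 and 0.30 in DU145. The direction of PARP8 in DU145 therefore depended on the probe, and in PC3 all 3 of its probes were below 0.

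PARP9, the macrodomain protein that works with DTX3L, had a signal of 2010 in PC3-shC, 445 in PC3-shESS2, 63.4 in DU145-shC and 58.9 in DU145-shESS2. PC3-shC stood far above the other arrays. The log2 ratio was −2.32 in PC3, a 4.98-fold lower level, and −0.15 in DU145, which is within the spread between dim spots. A second PARP9 probe, for another transcript, gave −2.47 in PC3 (1340 against 267) and −0.58 in DU145 (75.7 against 52.1).

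DTX3L, the ubiquitin ligase bound by PARP9, had a signal of 695 in PC3-shC, 240 in PC3-shESS2, 70.9 in DU145-shC and 48.7 in DU145-shESS2. It was 3.19-fold lower in PC3-shESS2 (log2 ratio −1.68), and its log2 ratio in DU145 was −0.58. The order of the arrays was that of PARP9, whose window holds the same core printed above.

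PARP14, a mono-ADP-ribosyltransferase with macrodomains, had a signal of 1440 in PC3-shC, 675 in PC3-shESS2, 303 in DU145-shC and 199 in DU145-shESS2. Its log2 ratio was −1.23 in PC3, a 2.35-fold lower level, and −0.65 in DU145. PARP14 lies in the same stretch of chromosome 3 as PARP9 and DTX3L and carries both sequence cores described above.

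PARP10, a mono-ADP-ribosyltransferase that modifies itself and other proteins, had a signal of 5020 in PC3-shC, 807 in PC3-shESS2, 457 in DU145-shC and 239 in DU145-shESS2. The log2 ratio was −2.78 in PC3, a 6.86-fold lower level, and −0.98 in DU145, a 1.97-fold lower level. By the probe that stood for each gene, −2.78 was the lowest PC3 ratio of the 10 members. With the mean of a gene's probes PARP10 had −2.02 in PC3 and PARP9 had −2.39. The second PARP10 probe was much dimmer, at 61.1 in PC3-shC, 28.0 in PC3-shESS2, 14.7 in DU145-shC and 20.4 in DU145-shESS2. It gave −1.27 in PC3 and 0.43 in DU145, so that the direction in PC3 was shared by both probes and that in DU145 was not.

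PARP12, a zinc-finger mono-ADP-ribosyltransferase, had a signal of 1760 in PC3-shC, 1070 in PC3-shESS2, 736 in DU145-shC and 591 in DU145-shESS2. Its log2 ratios of −0.86 in PC3 and −0.36 in DU145 were under 2-fold and beyond the spread between spots. Both lay between the 5th and 95th percentiles of all genes compared, −0.876 and 0.876 in PC3 and −0.759 and 0.705 in DU145.

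ZC3HAV1, the antiviral RNA-binding member, went the other way in PC3. Its brighter probe had a signal of 4030 in PC3-shC, 9450 in PC3-shESS2, 3300 in DU145-shC and 2880 in DU145-shESS2. The log2 ratio was 1.09 in PC3, a 2.13-fold higher level, and −0.24 in DU145. The second probe, annotated to the transcript that encodes the short form of the protein, had a signal of 562 in PC3-shC, 4270 in PC3-shESS2, 129 in DU145-shC and 116 in DU145-shESS2. It was 6.89-fold higher in PC3-shESS2 (log2 ratio 2.79), and its log2 ratio in DU145 was −0.19. The probes of ZC3HAV1 spanned 1.70 on the log2 scale in PC3 and 0.043 in DU145. Over the 4193 genes with several measured probes, the span in PC3 had a median of 0.22 and a 95th percentile of 1.01. PARP10 spanned 1.51 in PC3 and 1.41 in DU145, and PARP8 spanned 0.49 and 1.21, against a 95th percentile of 0.80 in DU145.

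**Figure D2:**
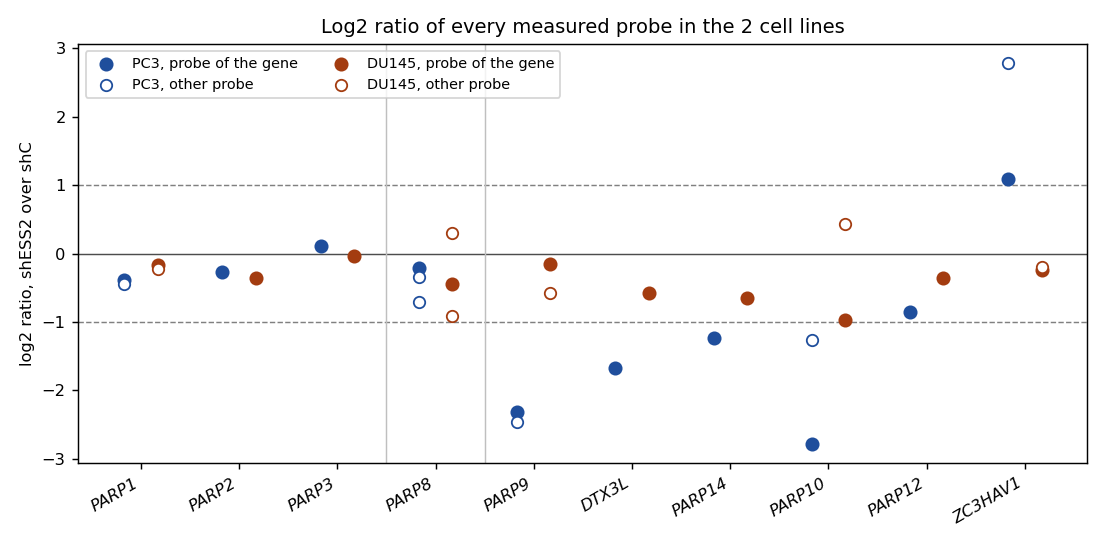
Log2 ratio (shESS2 over shC) of each measured probe of the 10 members in PC3 (blue) and DU145 (red), with filled points for the probe that stood for the gene and open points for its other probes, and dashed lines at a 2-fold difference. The PARP9 probes lie at −2.32 and −2.47 in PC3, both ZC3HAV1 probes lie above 1 in PC3 and just under 0 in DU145, and the probes of PARP10 and PARP8 fall on both sides of 0 in DU145.

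The control levels of the lines were then compared. The scaled signal was more than 2-fold higher in PC3-shC than in DU145-shC for 4 of the 10 members, PARP9, PARP10, DTX3L and PARP14, against 22.1% of the 17476 genes compared. The difference was 4.68 on the log2 scale for PARP9 (25.6-fold), 3.15 for PARP10 (8.86-fold), 2.98 for DTX3L (7.90-fold) and 1.94 for PARP14 (3.83-fold). The second probe of PARP9 was 14.3-fold higher in PC3-shC and that of PARP10 was 3.35-fold higher, so that these sizes depended on the probe. These 4 genes are also those that were more than 2-fold lower in PC3-shESS2, and both comparisons share the PC3-shC array, so that a high value on this array enters both. Under median scaling 6 of the 10 members passed instead of 4. PARP12 was 1.93-fold higher in PC3-shC (log2 difference 0.95), and PARP8 was 1.73-fold lower by the probe that stood for it and 2.06-fold and 2.72-fold lower by its other probes. ZC3HAV1 differed by −0.023 by its brighter probe and by 1.81 (3.51-fold higher in PC3-shC) by its second probe, so that its control difference depended on the probe. Between the shESS2 arrays the lines still differed, by 2.51 on the log2 scale for PARP9, 1.89 for DTX3L, 1.35 for PARP14 and 1.34 for PARP10, with PC3 above DU145 in each. The dim second probe of PARP10 differed by 0.045 there, so that this difference depended on the probe.

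The log2 ratio in PC3 minus that in DU145 was −2.17 for PARP9, −1.80 for PARP10, −1.09 for DTX3L, −0.59 for PARP14, −0.50 for PARP12 and 1.33 for ZC3HAV1. For PARP1, PARP2, PARP3 and PARP8 it lay between −0.22 and 0.235. These values are those of the probe that stood for each gene. The other PARP8 probes gave 0.565 and −1.002, and the second ZC3HAV1 probe gave 2.98. Whether the response differed between the lines could not be tested, since the 4 arrays leave no residual degree of freedom for that term.

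**Figure D3:**
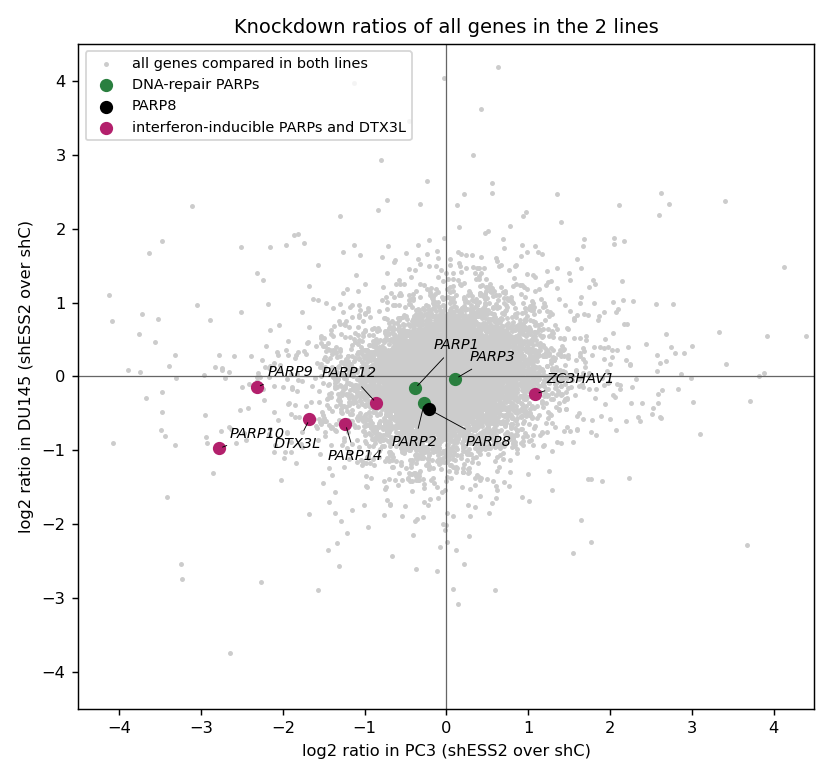
Log2 ratio (shESS2 over shC) in DU145 (vertical axis) against that in PC3 (horizontal axis) for the 15478 genes compared in both lines (grey), with the DNA-repair PARPs in green, PARP8 in black and the interferon-inducible genes in magenta. The DNA-repair PARPs and PARP8 sit near the middle of the grey cloud. PARP9, PARP10, DTX3L and PARP14 lie further left and below 0, and ZC3HAV1 lies further right. Each of these 4 was more than 2-fold lower in PC3, as were 3.87% of the genes compared in that line. The 13 genes outside ±4.5 are not drawn.

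When the cell lines were taken as replicates of the knockdown, 8 of the 10 members were lower in both lines, against 33.3% of the 15478 genes compared in both. This count holds for the probe that stood for each gene. In DU145 the second PARP10 probe had a log2 ratio of 0.43 and a further PARP8 probe 0.30. A limma fit over the 4 arrays, blocked by cell line, which leaves 1 residual degree of freedom per gene, called 0 of the 17126 genes tested at an adjusted p under 0.05, or 0.0% of them, and the lowest adjusted p of any gene was 0.746. Without adjustment, 1047 genes had a p under 0.05 in this fit, and 3.26% of the genes tested were both under it and lower in shESS2 cells. Among the members, 3 of 10 were so, and between 0 and 4 had such a p under other settings. PARP14 had an effect of −0.94 on the log2 scale (SE 0.23), DTX3L one of −1.13 (SE 0.33) and PARP10 one of −1.88 (SE 0.49), each with a limma adjusted p of 0.746. PARP9 had an effect of −1.23 with an SE of 0.58 (limma adjusted p = 0.746), and PARP1 one of −0.27 with an SE of 0.19 (limma adjusted p = 0.750). ZC3HAV1 had an effect of 0.43 with an SE of 0.38 (limma adjusted p = 0.788). No member therefore passed the test over both lines. The sizes for PARP10 and ZC3HAV1 depended on the probe. With the mean of a gene's probes the effect was −1.15 for PARP10 and 0.86 for ZC3HAV1.

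The position of PARP9, DTX3L and PARP14 was described through the genes around them, because these members lie side by side on chromosome 3 with PARP15 between them. PARP15 was not well above background on any array. Of the 5 protein-coding genes on each side, 9 could be compared in PC3 and 8 in DU145, and 0 were past a 2-fold difference in either line. Their log2 ratios lay between −0.56 (KPNA1, an importin next to PARP9) and 0.45 (FAM162A) in PC3, and between −0.44 (MIX23) and 0.44 (PDIA5) in DU145. On the other side, HSPBAP1, next to PARP14, had log2 ratios of 0.34 in PC3 and 0.335 in DU145. Over all genes compared, 3.87% were more than 2-fold lower and 3.88% higher in PC3, so that a count of 0 among so few neighbours is close to that share.

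The genes whose pattern over the 4 arrays was most like that of PARP9 were sought among 14686 genes well above background on all 4, by the Euclidean distance between scaled log2 values centred on each gene's mean. The nearest were CNIH3 (distance 0.36), IRF7 (0.40), PLA2G4A (0.40), LFNG (0.435) and HCLS1 (0.51), and among the members DTX3L (1.28), PARP10 (1.50) and PARP14 (2.12) were nearest. IRF7 is a transcription factor of the interferon response, and its signal was 25300 in PC3-shC, 6490 in PC3-shESS2, 932 in DU145-shC and 1090 in DU145-shESS2. The nearest to PARP1 were KRTAP10-8 (0.023), C9orf50 (0.024), SHFL (0.030), GEMIN4 (0.036) and ETFRF1 (0.036), and PARP2 lay at 0.23. A pattern over 4 arrays with small differences has many close matches, as the distances of the PARP1 list show.

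The other family members were counted next, and 8 were on the array. The counts past 2-fold in these and the following lists are to be read beside the shares of all genes, 3.87% lower and 3.88% higher in PC3 and 2.47% lower and 2.36% higher in DU145, which come to under 1 gene for lists of this size. In PC3, 6 could be compared, with 2 lower, 4 higher, 0 more than 2-fold lower and 1 more than 2-fold higher, and a median log2 ratio of 0.11. TIPARP, the mono-ADP-ribosyltransferase that the aryl hydrocarbon receptor induces, was the one past 2-fold, with a signal of 1550 in PC3-shC, 4380 in PC3-shESS2, 2800 in DU145-shC and 2720 in DU145-shESS2. Its log2 ratio was 1.36 in PC3 and −0.082 in DU145, so that TIPARP, like ZC3HAV1, was higher in PC3-shESS2 and slightly lower in DU145-shESS2. The tankyrases, which act at telomeres and in WNT signalling, split in PC3, with log2 ratios of −0.81 for TNKS and 0.30 for TNKS2, and had 0.17 and 0.11 in DU145. PARP4, the vault PARP, had −0.60 in PC3 and 0.13 in DU145, PARP11 had 0.20 and 0.029, and PARP16, a protein of the endoplasmic reticulum, had 0.025 and −0.096. By its brighter probe PARP6 was at background level on the PC3 arrays (2.18 and 4.78) and had a signal of 1970 and 2070 on the DU145 arrays. Its second probe had signals of 17.3 and 13.2 in PC3 and of 254 and 314 in DU145. In DU145, 7 of these genes could be compared and 0 were past 2-fold.

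All 10 enzymes that remove ADP-ribose could be compared, with 0 past 2-fold in either line, which is near the share of all genes, and a median log2 ratio of −0.22 in PC3 (6 lower, 4 higher) and 0.01 in DU145 (4 lower, 6 higher). PARG, which degrades poly-ADP-ribose chains, had −0.37 in PC3 and 0.15 in DU145, and MACROD1, which removes single units, had −0.68 and −0.51. Of the 12 partners of PARP1 and factors of single-strand break repair, 11 could be compared, with a median of −0.20 in PC3 and −0.23 in DU145 and 0 past 2-fold, again near the share of all genes. XRCC1, the scaffold that PARP1 recruits to breaks, had −0.20 and −0.14, and HPF1, which directs PARP1 to serine residues, had −0.32 and −0.42. Of the deltex family to which DTX3L belongs, DTX2, DTX3 and DTX4 could be compared and had log2 ratios of 0.26, −0.34 and −0.70 in PC3 and of 0.21, −0.14 and at least 0.65 in DU145, where DTX4 was dim in the control. TRIM25, the ubiquitin ligase that assists ZC3HAV1, had −0.88 in PC3 and −0.43 in DU145, and KHNYN, a nuclease that works with it, had 0.092 and −0.36.

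NAD, the substrate of all active members, was described through 12 genes of its synthesis and use. In PC3, 10 were compared, with 7 lower, 3 higher and a median log2 ratio of −0.53. NNMT, which methylates nicotinamide, had a signal of 33800 in PC3-shC, 2190 in PC3-shESS2, 8270 in DU145-shC and 14300 in DU145-shESS2. It was 17.0-fold lower in PC3-shESS2, the only gene of the list past 2-fold in PC3, and had a log2 ratio of 0.75 in DU145. NAMPT, the rate-limiting enzyme of NAD salvage, had −0.97 in PC3 and 0.069 in DU145. In DU145, 11 genes were compared with a median of −0.066, and QPRT, which makes NAD from tryptophan breakdown, was 2.18-fold higher (18.4 against 41.3), the only one past 2-fold there.

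The interferon pathway upstream of these PARPs was also measured. Of its 11 genes in PC3, 8 were lower and 3 higher, with a median log2 ratio of −0.42. Of these, 3 were more than 2-fold lower and 1 more than 2-fold higher, against 3.87% and 3.88% of all genes compared. IRF9, the DNA-binding part of the complex that recognises the response element, had a signal of 1160 in PC3-shC, 191 in PC3-shESS2, 153 in DU145-shC and 171 in DU145-shESS2, with log2 ratios of −2.74 and 0.12. STAT2 had −0.97 and 0.36. IRF9 and IRF7 were thus highest in PC3-shC, as PARP9 was. In contrast, IFNB1, which encodes interferon beta, was not well above background in PC3-shC (6.56), had a signal of 130 in PC3-shESS2, at least 13.2-fold higher, and was not well above background in DU145. In DU145, 10 of these genes were compared, 5 lower and 5 higher, with 0 past 2-fold and a median of −0.004.

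Among 24 classical interferon-stimulated genes on the array, log2 ratios in PC3 lay on both sides of 0: of the 23 compared, 12 were lower and 11 higher in PC3-shESS2, with 9 more than 2-fold lower and 4 more than 2-fold higher, against 3.87% and 3.88% of all genes, and a median of −0.047. Their log2 ratios ran from −5.02 (IFITM1) to 4.58 (RSAD2). ISG15, a ubiquitin-like modifier, had a log2 ratio of 0.35 in PC3 and 0.94 in DU145. MX1, which encodes an antiviral GTPase, had −3.32 in PC3 and −0.925 in DU145. OASL, which encodes an oligoadenylate synthetase-like protein, had 2.60 in PC3 and 2.19 in DU145. In the control arrays 22 of the 23 genes were more than 2-fold higher in PC3-shC than in DU145-shC, against the 22.1% of all genes. In DU145, 14 were compared, with 2 more than 2-fold lower and 5 more than 2-fold higher, against 2.47% and 2.36% of all genes, and a median of 0.50. Of these 14, 6 were lower and 8 higher.

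Markers of other cell types were read beside these values. Of the leukocyte markers, 4 of 5 were on the array, and their summed signal was 291 in PC3-shC, 124 in PC3-shESS2, 209 in DU145-shC and 325 in DU145-shESS2. CD14 had a signal of 221 in PC3-shC and 54.7 in PC3-shESS2, with a log2 ratio of −2.16 in PC3 and 0.63 in DU145, while PTPRC had −0.13 and 0.10 and CD3E was not well above background on any array. The endothelial markers, 3 of 3 on the array, summed to 409.9 in PC3-shC, 100.1 in PC3-shESS2, 60.2 in DU145-shC and 70.7 in DU145-shESS2. PECAM1 carried the difference in PC3 with a log2 ratio of −4.51, and CDH5 had 0.025 and VWF 0.18. The fibroblast markers summed to between 89.9 and 282, with COL3A1 not well above background on any array. The part of CD14 and PECAM1 in the values of the PARP genes was not tested.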

How the data were processed

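RNA of 4 conditions, 1 array each, was measured on one-colour Agilent arrays. The authors deposited the scanner output of Agilent Feature Extraction 12.1.0.3 (PC3) and 12.0.3.1 (DU145), in which spot intensity is background-subtracted and not scaled between arrays, with flags for spots above background. Their deposited table of scaled intensity equals the processed signal times 1 constant per array. For this report, log2 intensity minus the array's 75th percentile was used (signals of 212 to 290). Control and outlier spots were left out and the spots of a probe averaged. The probe with the highest mean stood for a gene. A gene entered a comparison if 1 or both arrays measured it well above background, and a dim value was raised to the lowest signal above background (8.15 to 9.02), which gives a bound. Accessions were matched to RefSeq symbols, giving 35080 probes a symbol. No test was made within a line. Limma 3.58.1 in R 4.3.3 was fitted to the 4 arrays, blocked by cell line, over genes that 2 or more arrays measured above background, and p-values were adjusted by Benjamini-Hochberg (threshold 0.05). Nothing states that arrays stand for separate cultures. Members, lists and the rule for named genes (all members and other family genes, list genes past 2-fold or of best known role, 5 neighbours on each side, 5 most alike) were chosen with earlier results of these data known. Scaling, background correction, filter, probe choice and the block were varied. Some genes of the lists are not reported here. Calculations were tested on simulated data. Other tools were pandas 2.3.3, numpy 2.4.6, scipy 1.17.1 and matplotlib 3.10.9 in Python 3.11.15.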

Additional observations from a re-analysis of the deposited data

Results flagged for a closer look

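For 4 genes the 2 cell lines lay on opposite sides of 0 and one of them passed 2-fold, with 1 array on each side of each ratio. The difference between the lines was not tested for any of them. ZC3HAV1 had a log2 ratio (shESS2 over shC) of 1.09 in PC3 and −0.24 in DU145. IRF7 had −2.10 in PC3 and 0.19 in DU145. NNMT had −4.09 in PC3 and 0.75 in DU145. QPRT had −0.565 in PC3, a bound because its PC3-shESS2 signal was dim, and 1.13 in DU145.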

How the results depend on the processing

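Of the members' log2 ratios, that of PARP3 in DU145 took both signs under the alternatives, between −0.032 and 0.014, and the others kept their sign. Of the values that summarise a comparison, 120 moved by less than the limits set and 24 moved by more. Scaling the arrays to their medians shifted the median of all genes in PC3 from −0.055 to −0.16, that of the interferon-inducible genes to −1.56 and that of the DNA-repair PARPs to −0.37. ZC3HAV1 then stood at 0.99, so that 0 members were more than 2-fold higher. Quantile normalization gave a median of −1.31 for the interferon-inducible genes in PC3, and 1 member, PARP10 at −1.04, more than 2-fold lower in DU145. Normexp background correction gave 323 genes lower and 248 higher in PC3 and 77 lower and 139 higher in DU145, with medians of −1.26 and −0.16 for the interferon-inducible genes and DNA-repair PARPs in PC3 and −0.32 for the former in DU145. With no filter on dim genes 1193 were lower and 1431 higher in PC3 and 1061 and 959 in DU145, where the median of all genes was −0.11. Requiring both arrays above background left 271 lower in DU145. The mean of a gene's probes gave −0.17 for the DNA-repair PARPs in PC3 and −0.36 for the interferon-inducible genes in DU145. The authors' scaled values gave −1.37, −0.18 and 0.035 for the interferon-inducible genes, the DNA-repair PARPs and all genes in PC3, the last with its sign turned. The cause of these shifts was not tested. PARP9 in PC3 lay between −2.42 and −2.0, PARP10 between −2.88 and −2.02, DTX3L between −1.78 and −1.43 and PARP14 between −1.34 and −1.10. The limma fit called 0 genes at an adjusted p under 0.05 under each of its settings. With no replicate block, that is with the cell line left out of the fit, it called 0 genes. There 23 genes, 0 of them members, had an unadjusted p under 0.05. The members with such a limma p numbered 3 in the main fit and 2 with the mean of a gene's probes. They numbered 4 with normexp background correction, and 4 when all 4 arrays had to be above background. Leaving out an array leaves no ratio in its line and no residual degree of freedom in the fit, so it was not run. PARP3, and PARP9 and DTX3L in DU145, had signals under 100, where spots of one probe differed most.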
